A study of Mus musculus with 30 samples.

Results

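Joint loss of WAPL and NIPBL was examined in mouse embryonic stem cells, in 6 of the 30 libraries of the series and across 19868 tested genes of 55421 in the annotation. The 6 libraries were chosen by their labels. In 3 of them the cells had been given auxin and dTAG-13 together for 24 h, and the other 3 came from untreated cells of the same line, so that the treatment is the only labelled difference. Both groups were E14 cells (XY, 129P2/Ola) of the line EN382.1, with the genotype WAPL-AID, NIPBL-FKBP, RAD21-Halo and Tir1. The untreated cells therefore also carry the AID tag on WAPL, the FKBP tag on NIPBL, the HaloTag on the cohesin subunit RAD21, and Tir1. Auxin (indole-3-acetic acid) was used at 500 µM and dTAG-13 at 500 nM. All cells grew on gelatin in serum medium with leukemia inhibitory factor, the MEK inhibitor PD0325901 and the GSK3 inhibitor CHIR-99021, and polyadenylated RNA was sequenced. No group used here received dTAG-13 without auxin, so the parts of WAPL loss, NIPBL loss, auxin and dTAG-13 in a change cannot be told apart within this line. It is represented by 1 named line, and the labels do not say whether its replicates were separate cultures. The p-values therefore measure the spread between replicate libraries within the 10 groups fitted together, which may be technical.

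Cohesin is a ring-shaped complex that extrudes loops of chromatin and holds sister chromatids together. NIPBL activates its ATPase and is needed for loop extrusion, whereas WAPL releases cohesin from chromatin, so that its loss leaves cohesin bound for longer. The AID tag is an auxin-inducible degron through which Tir1, a plant F-box protein, marks a fused protein for destruction when auxin is added, and the FKBP tag does the same through dTAG-13. Of the groups used for comparison, each with 3 untreated and 3 treated libraries, the TIR1 line EN148.10 carries Tir1 alone and received auxin. The WAPL line CMW184 carries WAPL-AID and Tir1 and received auxin. The PDS5AB-NIPBL line EN331.2 carries PDS5A-AID and PDS5B-AID together with NIPBL-FKBP, RAD21-Halo and Tir1, and received auxin with dTAG-13. The PDS5AB line EN293.1 carries PDS5A-AID, PDS5B-AID and Tir1 and received auxin.

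The 6 libraries held between 22235051 and 33807322 fragments assigned to genes, and replicates of a group had a Pearson correlation of log2 CPM of at least 0.990. CPM is the count scaled to a fixed library total after TMM scaling of the library sizes. Libraries of this line were numbered in turn with those of the WAPL and PDS5AB-NIPBL lines, whereas untreated and treated TIR1 libraries belong to separate runs of library numbers, so a difference from the TIR1 effect cannot be told apart from a difference between library sets. Of 7 defining markers of embryonic stem cells all were expressed, with a summed level of 5354 to 5476 CPM in untreated and 4334 to 4572 CPM in treated cells. Degrons act on protein, which was not measured. Transcripts of the tagged genes stood at 292, 315 and 287 CPM untreated and 254, 284 and 264 CPM treated for Wapl (log2 -0.16, SE 0.07596, edgeR adjusted p = 0.231). For Nipbl they stood at 66.6, 75.3 and 68.1 against 61.3, 67.1 and 66.7 CPM (log2 -0.11, SE 0.106, edgeR adjusted p = 0.643), and for Rad21 at 315, 329 and 323 against 287, 309 and 291 CPM (log2 -0.12, SE 0.05901, edgeR adjusted p = 0.218). None of the tagged genes passed the threshold. Wapl and Rad21 did so with a replicate block within each line (edgeR adjusted p = 0.00906 and 0.0125), and all 3 did so with a block in these 6 libraries alone (Nipbl edgeR adjusted p = 0.0403).

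Of the 19868 genes, 1016 rose (5.11%) and 686 fell (3.45%) after joint depletion, 1702 in all (8.57%, quasi-likelihood F-test of edgeR, Benjamini-Hochberg adjusted p under 0.05). Most changes were small. The median size of a called change was log2 0.54, and 928 of the called genes (54.5%) changed by less than 1.5-fold. At least 2-fold changes were called for 347 genes (1.75%), of which 258 rose (1.3% of all tested) and 89 fell (0.448%), and 65 genes changed at least 4-fold, 46 upward and 19 downward. The CPM ranges of the 2 groups did not overlap in 5356 genes (27% of those tested) and in 1656 of the 1702 called. Same-numbered libraries of the line deviated together, and the fit behind these counts leaves this pairing out. With the replicate number as a block within each line the same test called 4152 genes, or 5816 with the block and these 6 libraries alone. Fitted in the same way, with no block, the called shares of the other treatment effects were 19.9% for auxin in the TIR1 line (10.4% up, 9.59% down), 32.8% in the WAPL line (17% up, 15.8% down), 19.5% in the PDS5AB-NIPBL line (11.4% up, 8.06% down) and 46% in the PDS5AB line (25.8% up, 20.2% down). These shares were not compared by a test, and with the block within each line the share in the WAPL-NIPBL line was 20.9%, so they give no order of the lines.

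The largest rises were led by a pair of cytochrome P450 genes, Cyp1b1 and Cyp1a1, followed by receptors, transporters, enzymes and secreted proteins. Genes are named by a rule that took the 12 largest rises and 12 largest falls among called genes whose mean reached 50 counts and whose groups do not overlap. The P450 enzymes metabolise xenobiotics and are described with the aryl hydrocarbon receptor below. Htr5a, a serotonin receptor (chr5:27842149-27855088, plus strand, GRCm38), stood at 6.87, 3.91 and 6.77 CPM in untreated and 49.96, 29.4 and 48.2 CPM in treated cells (log2 2.87, SE 0.229, edgeR adjusted p = 1.14e-09). Replicate 2 was the lowest library in both groups, and the lowest treated library lay far above the highest untreated one. Dkk1, a secreted Wnt antagonist (chr19:30545863-30549665, minus strand), went from 3.98, 2.36 and 2.23 to 15.7, 7.23 and 11.7 CPM (log2 2.03, SE 0.293, edgeR adjusted p = 1.81e-05), with treated replicate 2 again the lowest of its group. Slc44a5, a choline transporter-like protein, rose from 6.02, 4.65 and 3.597 to 17.9, 17.5 and 15.1 CPM (log2 1.84, SE 0.151, edgeR adjusted p = 1.71e-09). It overlaps 1 gene on the opposite strand, and since fragments were counted without strand the 2 cannot be told apart, which holds for every overlapping gene named here.

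The other rises among the 12 were of 6.83-fold for Gpld1, a phospholipase that cleaves membrane anchors, 4.22-fold for St8sia2, a polysialyltransferase, and 4.16-fold for the endocytic adaptor Epn3. Gpld1 and St8sia2 each overlap 1 gene on the opposite strand. Vnn1, a pantetheinase, rose 3.76-fold, Cyp2c70, a P450 of bile acid metabolism, 3.51-fold, the somatostatin receptor Sstr5 3.499-fold and the calreticulin relative Calr4 3.42-fold. Adjusted p for these 7 genes ran from 4.86e-08 (Calr4) to 2.86e-04 (Vnn1). Several were expressed at a low level even after treatment. Sstr5 reached 4.196, 3.43 and 2.35 CPM from 0.616, 0.811 and 1.33 CPM, and Vnn1 reached 3.16, 2.17 and 3.08 CPM from 1.14, 0.564 and 0.594 CPM. In neither gene did the groups overlap. All 12 were called in each of the 14 alternatives of processing that were run for them.

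**Figure D1:**
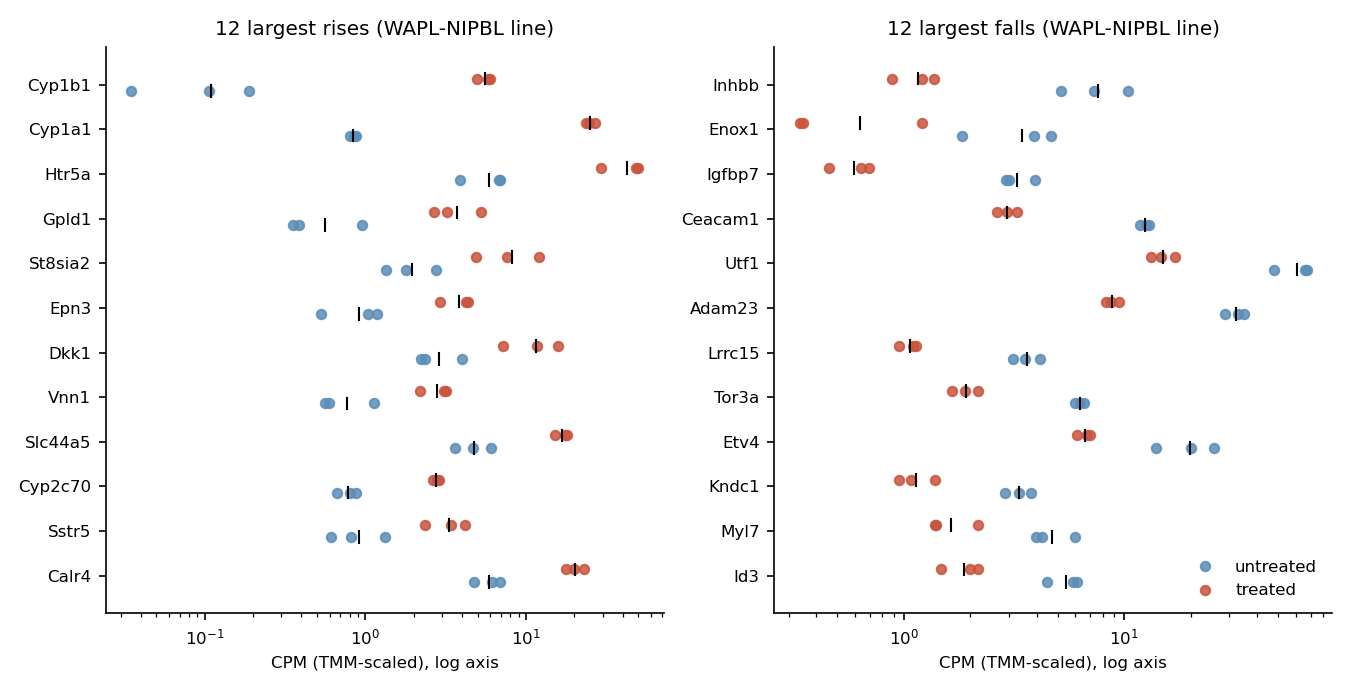
Level of the 12 genes with the largest rise (left) and the 12 with the largest fall (right) in each of the 6 libraries, as TMM-scaled CPM on a log axis. Points are libraries (3 untreated, blue, and 3 treated, red), black ticks the group means. In each of the 24 genes the lowest library of the higher group lies above the highest of the lower group, and most of the genes stand below 10 CPM in at least 1 group.

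The 12 largest falls included a ligand, a BMP target, an ERK-induced factor and a factor of pluripotent cells. Inhbb, which encodes the inhibin beta B chain of activin B (chr1:119415465-119422248, minus strand), stood at 7.296, 5.15 and 10.4 CPM untreated and 1.21, 0.888 and 1.36 CPM treated (log2 -2.72, SE 0.356, edgeR adjusted p = 3.74e-06). Untreated values varied by more than those after treatment, and the groups lay well apart. Id3, an inhibitor of basic helix-loop-helix factors and a BMP target, fell from 5.83, 4.44 and 6.11 to 1.99, 2.17 and 1.48 CPM (log2 -1.54, SE 0.318, edgeR adjusted p = 0.00152). Etv4, an ETS factor induced by ERK signalling (chr11:101769742-101785371, minus strand), fell from 25.4, 13.96 and 20.1 to 6.79, 6.09 and 6.97 CPM (log2 -1.57, SE 0.269, edgeR adjusted p = 1.69e-04). Utf1, a chromatin-associated factor of pluripotent cells (chr7:139943789-139945112, plus strand), was the most highly expressed of the 12, at 67.2, 47.998 and 66.2 CPM before and 16.9, 13.2 and 14.6 CPM after (log2 -2.02, SE 0.214, edgeR adjusted p = 1.21e-07). Replicate 2 was the lowest library of both groups.

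Igfbp7, a secreted insulin-like growth factor binding protein, went from 3.93, 2.995 and 2.898 to 0.692, 0.459 and 0.638 CPM (log2 -2.45, SE 0.234, edgeR adjusted p = 2.51e-08), and overlaps 2 genes on the opposite strand. The adhesion receptor Ceacam1 (chr7:25461707-25477603, minus strand) went from 11.7, 12.97 and 12.5 to 2.64, 3.25 and 2.93 CPM (log2 -2.07, SE 0.179, edgeR adjusted p = 3.98e-09), with a narrow spread in both groups. Adam23, a cell-adhesion protein of the ADAM family, changed by log2 -1.86 and the membrane protein gene Lrrc15 by log2 -1.76. Tor3a, a torsin ATPase of the endoplasmic reticulum, changed by log2 -1.72, Kndc1 by log2 -1.56 and the myosin light chain Myl7 by log2 -1.55. Adjusted p for these 5 genes lay between 2.51e-08 (Tor3a) and 1.09e-05 (Myl7). Enox1 also fell (log2 -2.55, SE 0.445, edgeR adjusted p = 2.31e-04) but overlaps 6 genes on the opposite strand and is uncertain. Ceacam1 and Adam23 each overlap 1 such gene. The 12 falls were also called in each of 14 alternatives.

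Targets of the aryl hydrocarbon receptor gave the 2 largest rises named, with Ahrr rising beside them. This receptor is a ligand-activated transcription factor that pairs with ARNT, binds DNA at a GCGTG core and induces Cyp1a1, Cyp1b1 and its own repressor Ahrr, and indole compounds are among its ligands. The 250 bases before the RefSeq start of these genes are shown because the 3 genes rose together and because each window holds that core. They come from RefSeq on GRCm38.p6, and capitals mark GCGTG or its complement CACGC, searched on both strands. Ahrr has 3 matches and the other genes 1 each, at chr9:57697363-57697612 (plus strand) for Cyp1a1, chr17:79715062-79715311 (minus strand) for Cyp1b1 and chr13:74292332-74292581 (minus strand) for Ahrr. The core is common: 28.2% of 32851 such windows hold it, 41.6% of the 16156 windows of tested genes, 36.7% of those of genes that rose and 43.3% of those of genes that fell, and a match is a description and not a site.
Cyp1a1: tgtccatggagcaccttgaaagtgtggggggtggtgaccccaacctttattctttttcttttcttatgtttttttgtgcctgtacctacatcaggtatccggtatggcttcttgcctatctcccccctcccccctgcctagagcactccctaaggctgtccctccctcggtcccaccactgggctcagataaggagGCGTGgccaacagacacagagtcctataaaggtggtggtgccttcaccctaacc
Cyp1b1: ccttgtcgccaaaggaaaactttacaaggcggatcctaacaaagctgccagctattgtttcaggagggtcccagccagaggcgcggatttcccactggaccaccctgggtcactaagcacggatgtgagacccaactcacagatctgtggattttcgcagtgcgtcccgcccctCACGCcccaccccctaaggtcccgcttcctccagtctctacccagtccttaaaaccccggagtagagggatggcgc
Ahrr: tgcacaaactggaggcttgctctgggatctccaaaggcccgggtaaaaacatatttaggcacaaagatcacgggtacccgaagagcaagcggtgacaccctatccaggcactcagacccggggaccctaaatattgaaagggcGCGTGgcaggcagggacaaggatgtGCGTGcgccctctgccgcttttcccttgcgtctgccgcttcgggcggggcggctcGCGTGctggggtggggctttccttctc

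Cyp1b1 stood at 0.1895, 0.106 and 0.0349 CPM in untreated and 5.97, 4.99 and 5.804 CPM in treated cells (log2 5.704, SE 0.309, edgeR adjusted p = 7.82e-14). Cyp1a1 stood at 0.805, 0.846 and 0.873 and 23.7, 26.7 and 24.7 CPM (log2 4.89, SE 0.185, edgeR adjusted p = 7.64e-18), and Ahrr at 0.426, 0.282 and 0.349 and 1.6005, 2.27 and 2.47 CPM (log2 2.61, SE 0.359, edgeR adjusted p = 8.95e-06). In each of these genes every treated library was several times above every untreated one. Of the 10 tested genes of the list, these 3 rose and 1 fell, the amino acid transporter Slc7a5 (log2 -0.33), a call lost when treated replicate 1 or 3 was left out (edgeR adjusted p up to 0.0717). Of all genes tested 5.11% rose and 3.45% fell. Auxin alone raised 8 of the 10 in the TIR1 line, where it raised 10.4% of all genes. Cyp1a1 changed there by log2 7.24 and Ahrr by log2 5.32, and the effect in the WAPL-NIPBL line was smaller, with a difference of log2 -2.36 for Cyp1a1 (SE 0.346, edgeR adjusted p = 5.06e-05) and -2.72 for Ahrr (SE 0.605, edgeR adjusted p = 0.00472). For Cyp1b1 the difference of log2 -1.596 (SE 0.726) did not pass (edgeR adjusted p = 0.217). Transcripts of the receptor itself, Ahr, stood at 13.03, 14.7 and 12.2 CPM untreated and 11.03, 12.1 and 10.2 CPM treated (edgeR adjusted p = 0.116, or 0.0364 with the block within each line), and their effect was lower than in the TIR1 line (difference log2 -0.69, edgeR adjusted p = 0.00236). Against the WAPL line, 3 members of the list had a higher effect and none a lower one, where 3.03% of all tested genes had a higher and 2.16% a lower effect. Against the PDS5AB-NIPBL line no member differed, where 0.0956% of all genes had a higher and 0.267% a lower effect. With the block within each line 7 members, 4 up and 3 down, were called instead of 4. Here and in the lists that follow, counts with this block are to be read against the 20.9% of all genes that it called.

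Most tested genes of naive pluripotency fell. Embryonic stem cells in this medium correspond to the epiblast of the early blastocyst, and their identity rests on Pou5f1, Sox2 and Nanog together with factors such as Esrrb, Klf4, Klf5, Tbx3 and Prdm14. Of 19 tested genes of this list 13 fell and none rose, where 3.45% of all genes fell and 5.11% rose, and the median change was log2 -0.31 against 0.01 over all genes tested. Tcl1, a cofactor of AKT signalling, stood at 76.7, 75.6 and 70.7 CPM untreated and 47.9, 40.4 and 35.8 CPM treated (log2 -0.85, SE 0.0901, edgeR adjusted p = 1.34e-07). Prdm14, a regulator that restrains differentiation and DNA methylation, stood at 53.9, 53.5 and 56.4 and 31.4, 34.9 and 35.9 CPM (log2 -0.68, SE 0.0787, edgeR adjusted p = 5.98e-07). Both had groups far apart relative to their spread. Klf4, a Krüppel-like factor downstream of STAT3, stood at 356, 479 and 377 and 218, 284 and 259 CPM (log2 -0.67, SE 0.102, edgeR adjusted p = 3.44e-05), with replicate 2 the highest of each group. Klf5, a related factor, stood at 249, 256 and 239 and 157, 171 and 154 CPM (log2 -0.62, SE 0.0648, edgeR adjusted p = 9.50e-08).

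Fold changes of the core factors were smaller in size. The remaining genes of the list were chosen after their values were seen, since the whole list is described. Sox2 stood at 510.2, 559 and 499 CPM before and 368, 448 and 401 CPM after treatment (log2 -0.37, SE 0.0774, edgeR adjusted p = 0.00196), and Esrrb, an orphan nuclear receptor, at 917, 891 and 863 and 745, 726 and 709.7 CPM (log2 -0.29, SE 0.0511, edgeR adjusted p = 2.31e-04). Zfp42, Tbx3, Nr0b1 and the growth factor Fgf4 also fell (log2 -0.66, -0.47, -0.44 and -0.31). Pou5f1 changed by log2 -0.28 (edgeR adjusted p = 0.0135) and Nanog by -0.27 (edgeR adjusted p = 0.0411). The calls of Nr0b1 (without treated replicate 2 or untreated replicate 1) and Fgf4 (without treated replicate 1 or 3 or untreated replicate 2) were lost, with edgeR adjusted p up to 0.0739 and 0.0696. The Pou5f1 call was lost without treated replicate 3 or untreated replicate 1, and that of Nanog without any 1 of the 6 libraries, with edgeR adjusted p up to 0.0954 and 0.157. Klf2, Tfcp2l1, Dppa3, Nr5a2, Sall4 and Stat3 were not called, and their changes ran from log2 -0.25 (Sall4) to 0.21 (Stat3). With the block within each line Sall4, Nr5a2 and Stat3 were called as well (edgeR adjusted p = 3.09e-05, 0.00814 and 3.49e-04). Called members numbered between 10 and 12 when single libraries were left out.

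Under auxin alone, in the TIR1 line, 4 genes of this list rose and 5 fell, where 10.4% and 9.59% of all genes did. The effect of joint depletion was lower than that of auxin for 9 of the 19 genes and higher for none (of all tested genes 3.94% had a lower and 3.1% a higher effect, 7.04% in all). Klf4 rose with auxin by log2 0.57, and the difference was log2 -1.24 (SE 0.144, edgeR adjusted p = 9.53e-07). For Prdm14 it was -0.75 (edgeR adjusted p = 5.39e-05) and for Klf5 -0.77 (edgeR adjusted p = 1.53e-06). Utf1 fell in both lines (log2 -2.02 and -1.88), with a difference of log2 -0.15 (SE 0.2903, edgeR adjusted p = 0.819). Against loss of WAPL alone the effect was higher, that is the fall smaller, for 4 genes and lower for none, where 3.03% of all genes had a higher and 2.16% a lower effect. These were Sox2 (difference log2 0.66, SE 0.1096, edgeR adjusted p = 2.77e-04), Prdm14 (0.59, edgeR adjusted p = 0.00114), Klf4 (0.497, edgeR adjusted p = 0.0376) and Tbx3 (0.36, edgeR adjusted p = 0.0469). Against the PDS5AB-NIPBL line, from which 0.362% of all genes differed, no member of the list did.

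**Figure D2:**
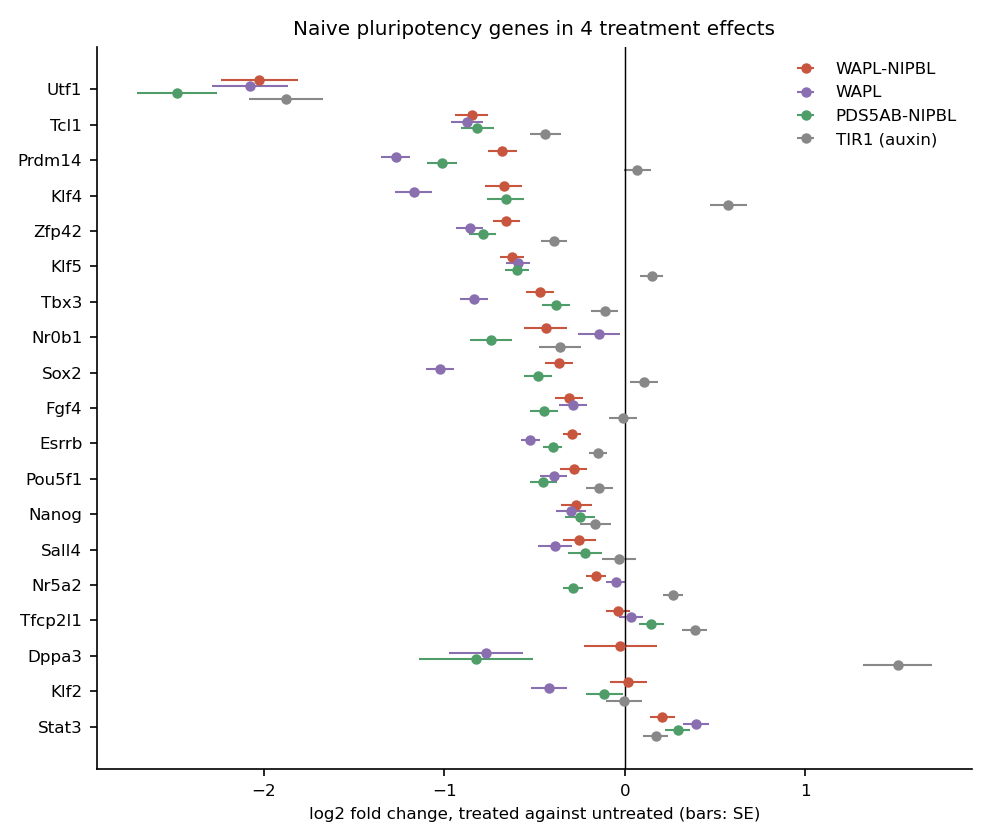
Log2 fold change (treated against untreated) of the 19 tested naive pluripotency genes in the WAPL-NIPBL, WAPL, PDS5AB-NIPBL and TIR1 lines. Bars are standard errors of contrasts of 3 against 3 libraries, taken from the fit to all 30 libraries. In the WAPL-NIPBL line (red) 13 genes lie below 0 with a call, and Klf4, Prdm14, Klf5 and Sox2 lie apart from the auxin control (grey).

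Several feedback genes of ERK signalling fell as well. The ERK cascade is blocked at MEK in this medium, and its feedback genes serve as a readout of what activity is left. Spry4, an inhibitor of receptor tyrosine kinase signalling, stood at 4.07, 2.26 and 4.23 CPM untreated and 0.346, 0.245 and 0.232 CPM treated (log2 -3.69, SE 0.546, edgeR adjusted p = 2.49e-05), and overlaps 2 genes on the opposite strand. Dusp6, an ERK phosphatase, stood at 7.296, 7.61 and 7.79 and 2.64, 3.55 and 2.35 CPM (log2 -1.41, SE 0.224, edgeR adjusted p = 7.17e-05). Both had no overlap between groups. With Etv4 (among the largest falls), Etv1 and Spred1, 5 of 19 tested ERK feedback genes fell and 2 rose, Myc and Lif, against 3.45% and 5.11% of all genes tested, while Spry2, Etv5 and Egr1 were not called. The count of called members dropped from 7 to 4 without treated replicate 1 and to 3 without treated replicate 3. The calls of Spred1, Etv1, Lif and Myc were each lost without treated replicate 3 and at least 2 other single libraries (edgeR adjusted p up to 0.145, 0.276, 0.225 and 0.158). The falls of Spry4, Dusp6 and Etv4 were not shown to differ from those under auxin alone, with differences of log2 -1.08 (SE 0.718), -0.52 (SE 0.301) and -0.19 (SE 0.354) and edgeR adjusted p of 0.408, 0.325 and 0.809.

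Genes of the formative epiblast, the state that follows the naive one, also fell more often than they rose, 7 against 2 of 17 tested, where 3.45% of all genes fell and 5.11% rose. Leaving out single libraries gave 7 falls each time and between 0 and 2 rises. Auxin alone lowered 10 of the 17 and raised 2, where it lowered 9.59% and raised 10.4% of all genes, with a median change of log2 -0.47 in the TIR1 line and -0.23 here. Otx2, a homeobox factor that drives the exit from the naive state, stood at 5.496, 6.48 and 4.12 CPM before and 2.77, 2.85 and 1.74 CPM after treatment (log2 -1.14, SE 0.234, edgeR adjusted p = 0.00142). Zic2, a zinc-finger factor of the same state, stood at 24.4, 16.03 and 21.02 and 11.5, 8.85 and 10.01 CPM (log2 -1.02, SE 0.172, edgeR adjusted p = 1.54e-04), with no overlap in either gene. The difference from auxin alone was called for Zic2 (log2 -0.84, SE 0.235, edgeR adjusted p = 0.0259) and not for Otx2 (log2 0.05, SE 0.326, edgeR adjusted p = 0.949). Of 16 Nodal and activin genes 2 fell, Inhbb and Id1, and 1 rose. The Id1 call was lost without treated replicate 2 or 3 or untreated replicate 1 or 3 (edgeR adjusted p up to 0.276). With the block within each line 6 members of this list were called instead of 3.

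Wnt output genes, whose pathway CHIR-99021 activates by inhibiting GSK3, rose in 5 and fell in 1 of 17 tested. The counts of this list and of the BMP and retinoic acid lists after it stand against 5.11% of all genes that rose and 3.45% that fell. Besides Dkk1, Sp8, a zinc-finger factor, went from 1.04, 0.634 and 0.419 to 3.03, 2.45 and 2.38 CPM (log2 1.94, SE 0.302, edgeR adjusted p = 5.40e-05), and T (brachyury) from 9.85, 8.599 and 8.62 to 16.4, 12.8 and 18.5 CPM (log2 0.82, SE 0.165, edgeR adjusted p = 0.00117). The rise of T was smaller than under auxin alone (difference log2 -1.198, SE 0.283, edgeR adjusted p = 0.00791), where 10 of the 17 rose (10.4% of all genes did). The list held 6 genes with a lower effect than in the TIR1 line and none with a higher one, against 3.94% and 3.1% of all genes. With the block within each line 12 members were called instead of 6. Of 12 BMP response genes 3 fell, among them Id3, and 2 rose. Msx1, a homeobox factor, rose from 0.142, 0.176 and 0.105 to 0.822, 0.674 and 0.958 CPM (log2 2.503, SE 0.519, edgeR adjusted p = 0.00156), and its treated libraries all lay above the untreated ones. Without treated replicate 2, treated replicate 3 or untreated replicate 1, 3 BMP genes were called instead of 5. Retinoic acid genes rose in 4 and fell in 1 of 15, led by Rarb, a receptor and direct target (log2 1.88, edgeR adjusted p = 0.00953), and the retinoic acid synthesising enzyme Aldh1a2, from 2.37, 2.11 and 2.62 to 6.53, 4.26 and 4.82 CPM (log2 1.12, SE 0.237, edgeR adjusted p = 0.00196). The Rarb call was lost without treated replicate 3 (edgeR adjusted p = 0.0514) or untreated replicate 1 (edgeR adjusted p = 0.0568), and with the block within each line 8 members of this list were called instead of 5.

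Among genes of other lineages, those of endoderm rose in 6 of 18 tested and fell in none, where 5.11% of all genes rose and 3.45% fell. Dab2, an endocytic adaptor of primitive endoderm, stood at 1.52, 1.27 and 1.54 CPM untreated and 5.75, 3.83 and 3.63 CPM treated (log2 1.59, SE 0.238, edgeR adjusted p = 2.92e-05). Pdgfra, the receptor that marks primitive endoderm, stood at 2.37, 1.97 and 2.34 and 6.23, 5.91 and 6.94 CPM (log2 1.52, SE 0.173, edgeR adjusted p = 4.39e-07). Both overlap 2 genes on the opposite strand, and in both the groups lay apart. Gata6, the factor that specifies this lineage, rose from 0.474, 0.458 and 0.629 to 1.34, 1.16 and 1.19 CPM (log2 1.22, edgeR adjusted p = 0.0158), a call lost without untreated replicate 1 (edgeR adjusted p = 0.0597) or 2 (edgeR adjusted p = 0.0729). Basement membrane chains made up the rest, namely Lamb1 (log2 0.79), Col4a2 (0.73) and Col4a1 (0.53). The Col4a1 call was lost without treated replicate 2 or 3 or untreated replicate 1 or 3 (edgeR adjusted p up to 0.1397). The defining factors Sox17, Sox7, Gata4 and Foxa2 were not called (Gata4 was with the block within each line, edgeR adjusted p = 0.0183), and Sox17 and Sox7 reached at most 0.319 and 0.142 CPM in the 6 libraries.

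Under auxin alone Col4a1 and Col4a2 fell, and the difference was log2 1.76 for Col4a1 (SE 0.226, edgeR adjusted p = 6.65e-06) and 1.44 for Col4a2 (SE 0.241, edgeR adjusted p = 2.49e-04). For Dab2 it was 1.71 (SE 0.315, edgeR adjusted p = 8.55e-04). The 5 primitive endoderm markers Gata4, Gata6, Sox17, Sox7 and Pdgfra summed to 4.19 to 4.501 CPM in untreated and 9.65 to 10.5 CPM in treated cells, with 2 of 5 called higher and none at 0. Whether more cells of this type or more RNA per cell lies behind such a value cannot be told apart in bulk RNA, and its part in the list's change was not tested.

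Trophoblast and keratin genes moved both ways, 4 down and 2 up of 16, where 3.45% of all genes fell and 5.11% rose. Tfap2c, an AP-2 factor of trophoblast and of naive stem cells (chr2:172549593-172558622, plus strand), fell from 52.2, 54.6 and 61.04 to 20.9, 21.6 and 23.8 CPM (log2 -1.34, SE 0.07802, edgeR adjusted p = 3.94e-13). Gata2, a trophoblast and blood factor, fell from 7.34, 12.1 and 8.45 to 2.94, 5.45 and 3.396 CPM (log2 -1.23, SE 0.251, edgeR adjusted p = 0.00131), with replicate 2 the highest of each group. Auxin alone raised both, by log2 0.64 and 0.89, and the differences were log2 -1.98 (SE 0.107, edgeR adjusted p = 1.64e-13) and -2.12 (SE 0.338, edgeR adjusted p = 1.37e-04). Loss of WAPL alone gave a larger fall of Tfap2c (log2 -2.15), a difference of 0.81 (SE 0.109, edgeR adjusted p = 1.97e-05). The rises were of the keratins Krt8 and Krt7. The Krt7 call was lost without treated replicate 2 or 3 or untreated replicate 1 or 3 (edgeR adjusted p up to 0.218). The 5 trophoblast markers Cdx2, Elf5, Gata3, Krt7 and Krt8 summed to 14.6 to 16.96 CPM untreated and 24.6 to 27.3 CPM treated, with none at 0 in all 6 libraries and Elf5 at 0 in treated replicate 3.

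In the primitive streak and mesoderm list 2 of 19 rose and 2 fell, where 5.11% of all genes rose and 3.45% fell. Wnt3, a ligand of streak formation, rose from 0.332, 0.388 and 0.244 to 2.08, 1.47 and 1.51 CPM (log2 2.36, SE 0.364, edgeR adjusted p = 4.47e-05), and Kdr, a receptor of early mesoderm, fell from 1.47, 1.13 and 1.47 to 0.735, 0.429 and 0.755 CPM (log2 -1.08, SE 0.244, edgeR adjusted p = 0.00353). The groups of both lay apart. T was the other rise. Evx1, a streak homeobox gene, stood at 0.142, 0.106 and 0.244 CPM untreated and had at most 1 count in each treated library (edgeR adjusted p = 0.0394). With 3 counts allowed to each treated library the group means differed 1.59-fold. Untreated libraries were themselves near that floor, so this is no firm lower bound. The Evx1 call was lost without any 1 of 5 libraries, namely all but untreated replicate 2 (edgeR adjusted p up to 0.176). The mesoderm markers summed to 10.995 to 13.03 CPM untreated and 14.8 to 21.1 CPM treated, the fibroblast markers to 10.3 to 12.4 and 7.52 to 8.18 CPM with Postn at 0, and the neural markers to 175 to 205 and 173 to 200.1 CPM. Of 13 neural progenitor genes 2 rose and 1 fell, set against the same shares of all genes. Sox1, a factor of the neural plate, fell from 4.88, 5.25 and 4.71 to 2.68, 2.63 and 2.61 CPM (log2 -0.91, SE 0.165, edgeR adjusted p = 3.78e-04), and without treated replicate 3 the list held 1 call instead of 3, and 5 with the block within each line. Hox genes rose in 4 of 30 and fell in none, where 5.11% of all genes rose, led by Hoxa9, from 0.1895, 0.282 and 0.349 to 1.17, 1.07 and 1.103 CPM (log2 1.98, SE 0.444, edgeR adjusted p = 0.00352). Without untreated replicate 3, 1 Hox gene was called, and with the block within each line 7 were. The part of these marker sums in the changes of the lists was not tested.

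Two-cell-like genes are a set that a rare subpopulation of stem cells shares with the early cleavage embryo. All 12 tested stood under 0.5 CPM in this line, and Tcstv3 had no count in it, which leaves little room for a call. None was called (edgeR; 8.57% of all genes were called), and 1 had an unadjusted p under 0.05. This was Zscan4d, named for that reason after its values were seen, at 0.0474, 0.176 and 0.0698 CPM untreated and 0.2595, 0.306 and 0.464 CPM treated (log2 1.75, edgeR adjusted p = 0.06696). It was called by DESeq2, in the fit that kept genes with low counts and with a replicate block within each line (edgeR adjusted p = 0.0156). Their 5 markers summed to 0.284 to 0.529 CPM in untreated and 0.692 to 0.958 CPM in treated cells, with Tcstv1 at 0. Loss of WAPL alone raised 10 of the 12, where it raised 17% of all genes. The effect differed between the lines by test for 1 of them (5.19% of all genes), Zscan4a, with a difference of log2 -2.57 (SE 0.623, edgeR adjusted p = 0.0114), and the Zscan4 copies share near-identical sequence, so their single counts are uncertain. For the other 11 the difference between the lines did not pass the test, and each stood under 0.5 CPM in every library of the WAPL-NIPBL line.

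**Figure D3:**
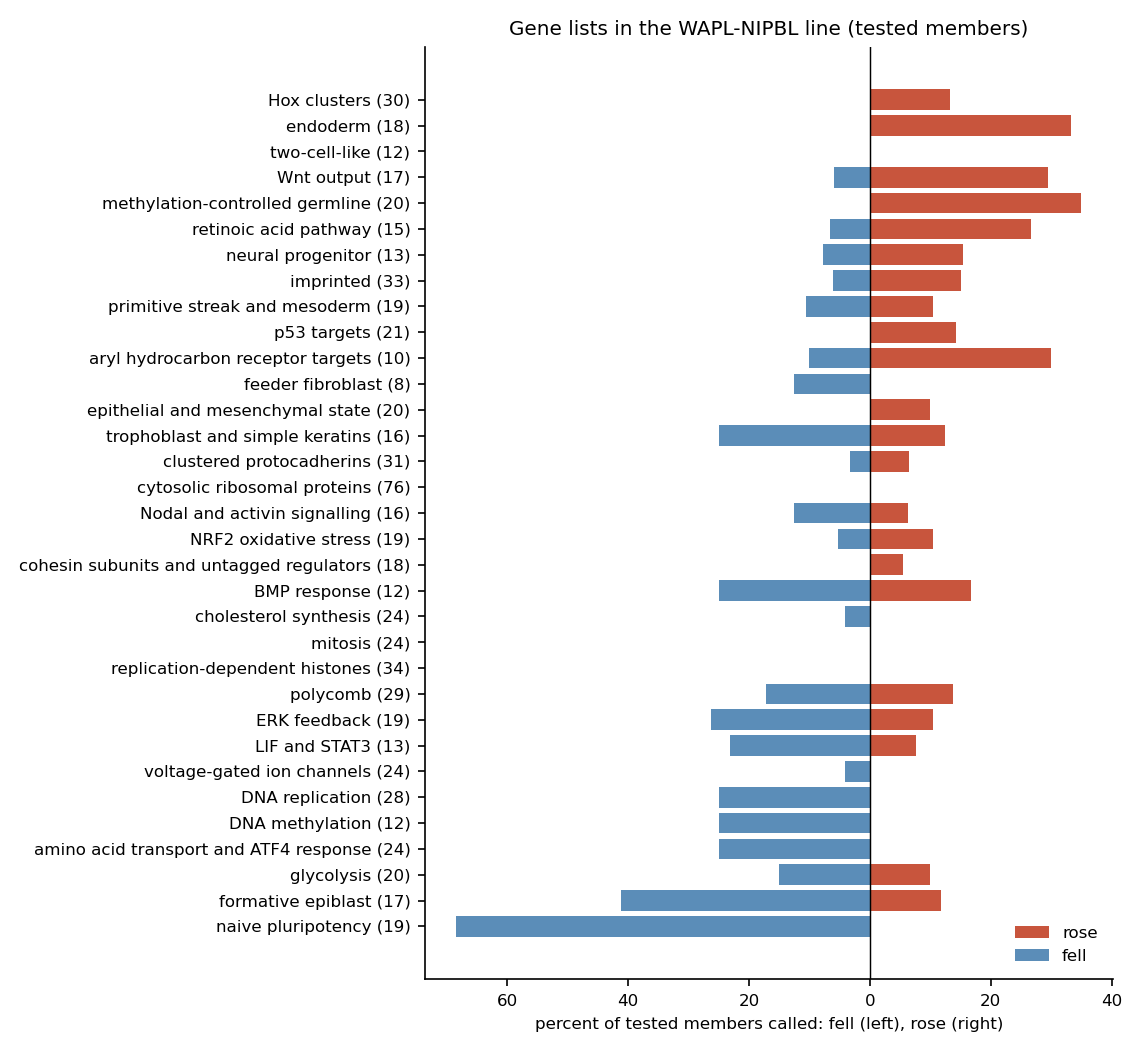
Share of the tested members of 33 gene lists that rose (right, red) or fell (left, blue) after joint WAPL and NIPBL depletion, ordered by the median log2 fold change of the list, with the number of tested members in brackets. Naive pluripotency has the most falls (13 of 19), endoderm rose in 6 of 18 and fell in none, and ribosomal proteins, histones and mitosis genes have no call.

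Genes of mitosis, of the cytosolic ribosome and of histones gave no call, whereas a part of the DNA replication genes fell. None of 24 mitosis genes, 76 cytosolic ribosomal protein genes or 34 replication-dependent histone genes was called (edgeR), where 8.57% of all genes were, while 3, 0 and 2 of them had an unadjusted p under 0.05. DESeq2 called 1, 0 and 0 in these lists, and the block within each line 5, 1 and 0. Of 28 DNA replication genes 7 fell and none rose, where 3.45% of all genes fell and 5.11% rose. The called changes were of log2 -0.300 or less in size, with Pola1, the catalytic subunit of DNA polymerase alpha, from 144, 143 and 132 to 116, 113 and 112 CPM (log2 -0.300, SE 0.0746, edgeR adjusted p = 0.008697) and Mcm4, a helicase subunit, from 503, 439.7 and 461 to 408, 372 and 381 CPM (log2 -0.27, SE 0.0683, edgeR adjusted p = 0.00869). The groups of both did not overlap, and those of Mcm4 lay apart by less than the spread of either group. This count rested on single libraries, with 2 calls without treated replicate 2, 2 without treated replicate 3 and 1 without untreated replicate 1, and it was 19 with the block within each line. The call of Mcm4 was lost without treated replicate 2 (edgeR adjusted p = 0.0506) or untreated replicate 1 (edgeR adjusted p = 0.07999). Loss of WAPL alone lowered 22 of the 28 (15.8% of all genes) and auxin alone 9 (9.59% of all genes). Against loss of WAPL alone 2 members had a higher effect, where 3.03% of all genes did, and against auxin alone 1 did, where 3.1% of all genes did.

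Amino acid transport and ATF4 response genes fell in 6 of 24, where 3.45% of all genes fell. Auxin alone lowered 17 of the 24, where it lowered 9.59% of all genes, with a median change of log2 -0.42 in the TIR1 line and -0.19 here. The arginine and lysine transporter Slc7a3 fell from 80.8, 73.9 and 80.7 to 26.6, 31.7 and 26.2 CPM (log2 -1.48, SE 0.126, edgeR adjusted p = 3.61e-09), well outside the spread of either group. The other 5 changed by log2 -0.400 or less in size, the largest of these being Slc1a4, whose call was lost without treated replicate 1 or 3 or untreated replicate 2 (edgeR adjusted p up to 0.149). In this list 1 gene was called without treated replicate 1 or 3, 3 genes without untreated replicate 2 and 15 with the block within each line. Glucose transporter Slc2a1 fell from 427, 547 and 454 to 261, 341 and 289.8 CPM (log2 -0.68, SE 0.142, edgeR adjusted p = 0.00174), and overlaps 2 genes on the opposite strand. Eno3, the muscle enolase, rose from 14.5, 10.9 and 12.9 to 21.6, 21.1 and 19.996 CPM (log2 0.72, SE 0.135, edgeR adjusted p = 5.44e-04), whereas auxin alone lowered it (log2 -1.07, difference 1.78, SE 0.1905, edgeR adjusted p = 2.87e-07). Of 20 glycolysis genes 2 rose and 3 fell, where 5.11% of all genes rose and 3.45% fell. Leaving out treated replicate 1 or untreated replicate 2 gave 2 calls in this list and leaving out treated replicate 3 or untreated replicate 3 gave 3, while the block within each line gave 17. Of 21 p53 targets 3 rose, where 5.11% of all genes did, among them the kinase gene Plk2, from 58.5, 54.3 and 53.6 to 87.8, 69.9 and 79.7 CPM (log2 0.51, SE 0.0872, edgeR adjusted p = 1.66e-04). This count was 1 without treated replicate 1, untreated replicate 2 or untreated replicate 3, and with the block within each line 12 rose and 1 fell. Auxin alone raised 12 of the 21, where it raised 10.4% of all genes, with a median change of log2 0.25 in the TIR1 line and 0.15 here. Against the PDS5AB-NIPBL line 3 of the 21 had a lower effect, where 0.267% of all genes did, and against auxin alone 3 did, where 3.94% of all genes did.

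Among regulators of chromatin, Tet2, a dioxygenase that oxidises methylcytosine (chr3:133463679-133545139, minus strand), stood at 272, 295 and 295 CPM untreated and 131, 149 and 157 CPM treated (log2 -0.98, SE 0.166, edgeR adjusted p = 1.56e-04), with all treated libraries far below the untreated ones, and overlaps 1 gene on the opposite strand. Under auxin alone it changed by log2 0.38 (edgeR adjusted p = 0.0989), a difference of log2 -1.37 (SE 0.234, edgeR adjusted p = 3.37e-04). Dnmt3l, a cofactor of de novo methylation, fell from 88.8, 68.2 and 69.7 to 57.4, 48.7 and 40.8 CPM (log2 -0.63, SE 0.127, edgeR adjusted p = 0.00122) but less than under auxin alone (difference log2 1.15, edgeR adjusted p = 1.06e-04). With Uhrf1, 3 of 12 DNA methylation genes fell, where 3.45% of all genes did, and 8 were called with the block within each line. The Uhrf1 call was lost without treated replicate 2 or 3 or untreated replicate 1 (edgeR adjusted p up to 0.08102). Of 20 germline genes that DNA methylation controls 7 rose and none fell, where 5.11% and 3.45% of all genes did. Taf7l, a germ cell TFIID subunit, went from 1.99, 2.57 and 2.58 to 4.11, 4.44 and 3.63 CPM (log2 0.76, SE 0.181, edgeR adjusted p = 0.00627) and Tex101, a germ cell surface protein, from 4.55, 3.88 and 4.68 to 7.66, 5.57 and 7.401 CPM (log2 0.65, SE 0.186, edgeR adjusted p = 0.0236). The Tex101 call was lost without treated replicate 1 or 3 or untreated replicate 1 or 2 (edgeR adjusted p up to 0.1099). The effect was above that of auxin for 5 of the 20 and below it for none, where 3.1% of all genes had a higher and 3.94% a lower effect. Leaving out treated replicate 2 or 3 or untreated replicate 1 or 2 left 4 germline calls, and the block within each line gave 11.

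Of 29 polycomb genes 4 rose and 5 fell, where 5.11% of all genes rose and 3.45% fell. Leaving out single libraries gave between 2 and 4 rises and 5 or 6 falls. Cbx8, a chromodomain subunit of polycomb repressive complex 1, went from 3.695, 2.22 and 3.84 to 5.796, 6.16 and 7.34 CPM (log2 0.996, SE 0.186, edgeR adjusted p = 5.09e-04), and Jarid2, a cofactor of polycomb repressive complex 2, from 311, 318 and 309 to 215, 237 and 212 CPM (log2 -0.500, SE 0.0759, edgeR adjusted p = 3.58e-05). In both the groups lay apart, and with the block within each line 16 members of the list were called instead of 9. Imprinted genes rose in 5 and fell in 2 of 33, also against 5.11% and 3.45% of all genes. Cdkn1c, a cyclin-dependent kinase inhibitor, rose from 1.18, 1.34 and 1.61 to 3.16, 3.83 and 3.599 CPM (log2 1.35, SE 0.202, edgeR adjusted p = 2.89e-05) and the noncoding H19 from 3.13, 3.88 and 4.64 to 5.75, 8.61 and 8.33 CPM (log2 0.96, SE 0.235, edgeR adjusted p = 0.00759). Auxin alone lowered Cdkn1c, and the differences were log2 2.06 (edgeR adjusted p = 1.29e-05) for Cdkn1c and 1.83 (edgeR adjusted p = 0.00457) for H19. The H19 call was lost without untreated replicate 1 (edgeR adjusted p = 0.0555), and the list then held 4 calls instead of 7. Among 18 subunits and untagged regulators of cohesin, Rec8, the meiotic kleisin, was the single call, where 8.57% of all genes were called. It went from 18.5, 23.9 and 18.9 to 27.6, 30.5 and 27.1 CPM (log2 0.47, SE 0.113, edgeR adjusted p = 0.00633), a call lost without untreated replicate 3 (edgeR adjusted p = 0.0503). With the block within each line 13 imprinted and 6 cohesin genes were called.

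In the remaining lists the counts are to be read against 5.11% of all genes that rose and 3.45% that fell. Of 13 LIF and STAT3 genes 3 fell, among them Klf4 and Klf5, and 1 rose, with 8 called under the block within each line. The effect was below that of auxin for 5 of the 13, where 3.94% of all genes had a lower effect. Clustered protocadherins, adhesion proteins whose promoter choice depends on cohesin, rose in 2 and fell in 1 of 31, shares near those of all genes. Pcdhga11 went from 2.65, 1.797 and 1.75 to 1.12, 0.735 and 0.958 CPM (log2 -1.13, SE 0.263, edgeR adjusted p = 0.00482), and fragments that fall in the exons shared by a protocadherin cluster cannot be given to 1 member. The block within each line called 5 of them. NRF2 genes rose in 2 and fell in 1 of 19, with 1 call left without treated replicate 1, none without treated replicate 2, untreated replicate 1 or untreated replicate 3, and 7 with the block within each line. Of 20 genes of epithelial and mesenchymal state 2 rose, of which 1 was left without any treated replicate or untreated replicate 3 and none without untreated replicate 2. The block within each line called 6. The effect on this list was below that of WAPL loss for 5 genes and above it for none, against 2.16% and 3.03% of all genes. Of 24 cholesterol synthesis genes 1 fell, Idi1, an isomerase of isoprenoid precursors. This call was lost without treated replicate 1 or untreated replicate 1 or 2 (edgeR adjusted p up to 0.0955) and in the fit to the 18 libraries of the WAPL-NIPBL, WAPL and PDS5AB-NIPBL lines alone (edgeR adjusted p = 0.0563), and 7 members of the list were called with the block within each line. Of 8 fibroblast genes 1 fell, Thy1, which was lost without treated replicate 1 or untreated replicate 3, and the block called 2. Of 24 voltage-gated ion channels 1 fell, Scn3a, with 2 called without untreated replicate 2 and 3 with the block. Of the list genes named in this and the preceding paragraphs, Col4a1 and Col4a2, which overlap each other, and Pou5f1, Tbx3, Tfcp2l1, Sall4, Stat3, Ahr, Slc7a5, Otx2, Rarb, Aldh1a2, Gata6, Sox17, Krt7, Krt8, Evx1, Pola1, Dnmt3l, Jarid2, Cdkn1c, H19, Pcdhga11 and Scn3a also overlap genes on the opposite strand. In the fit to those 18 libraries the calls of Krt7, Slc1a4, Tex101, Spred1, Etv1 and Lif were lost as well, and in the fit to the 6 libraries alone those of Krt7, Id1, Evx1, Etv1 and Lif.

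The 1702 called genes were then read in the other lines, which share no library with this one. Of them, 705 were also called under auxin alone, 41.4% of this list and 17.8% of the TIR1 list, against 19.9% of all genes tested, and 581 of the 705 moved the same way. In the WAPL line 1365 were called (80.2% of this list, 20.9% of the WAPL list), against 32.8% of all genes tested, and 1340 moved in the same direction. In the PDS5AB-NIPBL line 1285 were called (75.5% of this list, 33.2% of that line's list), against 19.5% of all genes tested, and all but 3 of these moved the same way. Over all 19868 genes, which are not independent replicates, the Pearson correlation of log2 fold changes was 0.197 with the TIR1 line, 0.474 with the WAPL line and 0.438 with the PDS5AB-NIPBL line. For 1053 of the 1702 genes (61.9%) the change in the WAPL line was the larger in size, and for 869 (51.1%) that in the PDS5AB-NIPBL line. For 354 genes (20.8%) it was larger under auxin alone. Of the 1702, 391 were called in the same direction in all 4 other effects, the PDS5AB line included, and 54 (38 up, 16 down) were called in none of them.

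**Figure D4:**
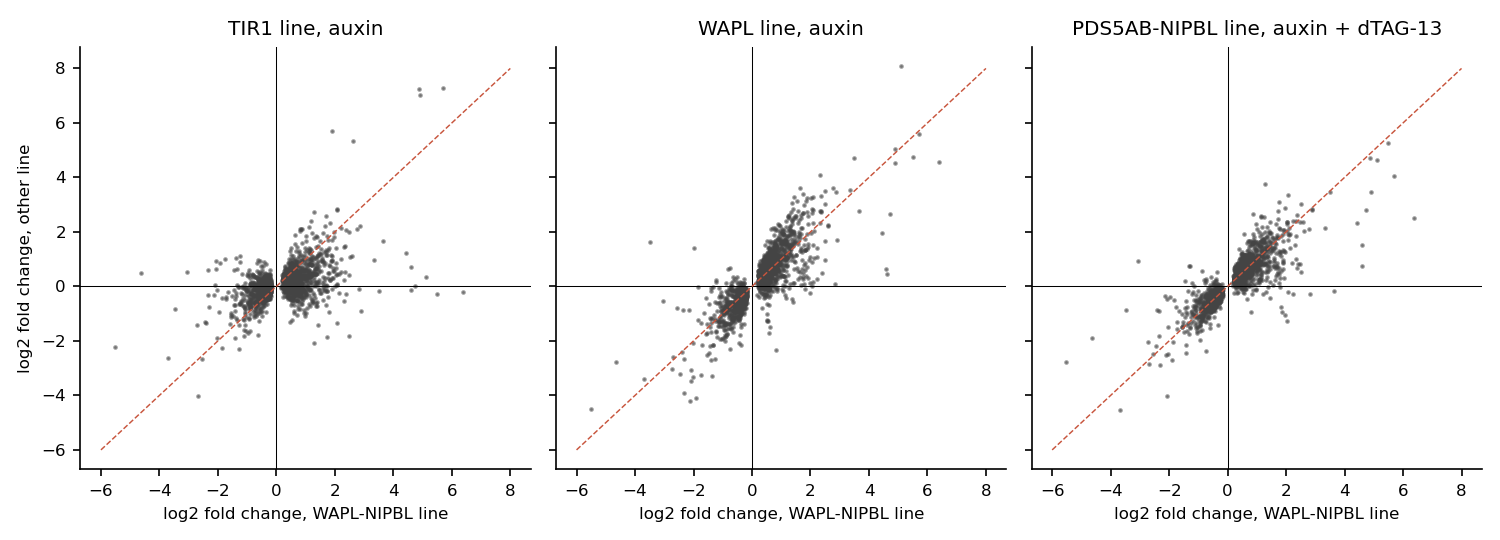
Log2 fold change of the 1702 genes called in the WAPL-NIPBL line (horizontal axis) against their log2 fold change in the TIR1, WAPL and PDS5AB-NIPBL lines (vertical axes). Each point is a gene and the dashed line marks equal change. Genes that rose had a median change of 0.61 here, 0.25 in the TIR1 line, 0.69 in the WAPL line and 0.62 in the PDS5AB-NIPBL line.

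Testing the difference of effects gave 1398 genes against auxin alone (7.04% of those tested), 616 with a higher and 782 with a lower effect. Without treated WAPL-NIPBL replicate 3 this count was 930, and with the block within each line 4436. Among the genes called in both effects, 124 moved in opposite directions. In each of these the difference was called, which the choice of genes called both ways in the same fit nearly fixed in advance. Of them, 76 fell after joint depletion and rose with auxin, and 48 did the reverse. Ceacam1 was one of the former, up by log2 0.64 with auxin, with a difference of -2.71 (SE 0.235, edgeR adjusted p = 8.88e-09). Lrrc15 was another, at 3.13, 4.16 and 3.56 CPM untreated and 0.952, 1.103 and 1.13 CPM treated here and up by log2 1.003 with auxin (difference -2.76, SE 0.306, edgeR adjusted p = 5.48e-07). The sodium channel Scn3a fell from 0.711, 0.705 and 1.08 to 0.0433, 0.306 and 0.261 CPM (log2 -1.92, SE 0.376, edgeR adjusted p = 8.67e-04) and rose with auxin by log2 0.85 (edgeR adjusted p of the difference 6.54e-05). Among called genes whose mean reached 50 counts over the libraries compared, those with the largest positive differences were the unannotated or pseudogene models Gm25911, Gm7783 and Rpsa-ps12, and Gm13577 had the largest negative one. These 4 were not called here (edgeR adjusted p = 0.738, 0.322, 0.274 and 0.684; Rpsa-ps12 had 0.0207 with the block within each line), and changed in the TIR1 line by log2 -4.05, -1.73, -1.86 and 3.36.

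Against loss of WAPL alone 1032 genes differed (5.19%), 602 with a higher and 430 with a lower effect, and 3070 with the block within each line. Has2, a hyaluronan synthase that overlaps an antisense gene, rose from 5.496, 3.98 and 3.63 to 8.44, 7.56 and 6.97 CPM (log2 0.81, SE 0.203, edgeR adjusted p = 0.00878), while in the WAPL line it fell from 1.61, 2.29 and 2.28 to 0.383, 0.323 and 0.514 CPM (log2 -2.32). The difference was log2 3.13 (SE 0.352, edgeR adjusted p = 9.47e-07), and the rise itself was lost without untreated replicate 3 (edgeR adjusted p = 0.0721). Glod5, a glyoxalase-domain gene, stood at 6.301, 6.17 and 4.3997 CPM untreated and 8.13, 8.54 and 7.08 CPM treated, a change that was not called (edgeR adjusted p = 0.121, or 0.00569 with the block within each line), against log2 -2.46 in the WAPL line (difference 2.96, edgeR adjusted p = 6.41e-07). Nsg2, Fras1 and Plscr2, which had the largest negative differences among called genes whose mean reached 50 counts, were likewise not called after joint depletion but rose in the WAPL line (log2 2.57, 2.07 and 2.13). Nsg2, a neuronal vesicle protein, stood at 2.13, 1.198 and 1.78 CPM untreated and 2.25, 1.96 and 1.42 CPM treated here, with overlapping groups. Kndc1 was a case of the opposite kind, with log2 -1.56 here and -0.42 with WAPL loss (difference -1.14, SE 0.262, edgeR adjusted p = 0.0073998). The WAPL line lacks the HaloTag on RAD21 and received no dTAG-13, so the part of NIPBL in these differences cannot be told apart from those.

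Against the PDS5AB-NIPBL line, which received the same treatment, 72 genes differed (0.362%), 19 with a higher and 53 with a lower effect. This count was sensitive to single libraries. It was 36 and 39 without treated PDS5AB-NIPBL replicate 1 and 2, 32 without untreated PDS5AB-NIPBL replicate 3, 30 without treated WAPL-NIPBL replicate 2, and 38 and 37 without untreated WAPL-NIPBL replicate 2 and 3. It was 170 with a replicate block over all libraries and 807 with the block within each line. Kctd12, a potassium channel tetramerisation domain protein, stood at 2.23, 2.96 and 2.62 CPM untreated and 2.51, 3.58 and 3.599 CPM treated in WAPL-NIPBL cells and at 3.59, 3.79 and 4.36 and 20.1, 20.96 and 21.3 CPM in PDS5AB-NIPBL cells, a difference in effect of log2 -2.09 (SE 0.2097, edgeR adjusted p = 1.12e-06). The groups overlapped in the first line and lay far apart in the second. Ceacam1 fell less here than in PDS5AB-NIPBL cells (difference log2 1.94, SE 0.335, edgeR adjusted p = 0.00403), and Adamts8, a secreted metalloprotease, did so as well (log2 1.63, SE 0.246, edgeR adjusted p = 8.26e-04). Adamts8 and Fras1 overlap genes on the opposite strand. The fall of Adamts8 here was not called in the 6 libraries alone (edgeR adjusted p = 0.0987) or without treated WAPL-NIPBL replicate 2 or 3 or untreated replicate 1 (edgeR adjusted p up to 0.0831). Gm6166, a gene model without known function, fell here and was not called there, going from 2.89, 1.94 and 2.93 to 0.649, 0.704 and 1.39 CPM (difference log2 -1.66, edgeR adjusted p = 0.00809).

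Changes were also read against where genes lie and how long they are. Among protein-coding genes above the median count, the share that fell was 3.85% of 1534 genes that span under 10 kb, 4.89% of 2640 between 10 and 30 kb and 5.16% of 2541 between 30 and 100 kb. It was 10.03% of 798 between 100 and 300 kb and 18.8% of 101 genes over 300 kb (19 genes). The share that rose went from 3.72% to 8.91% (9 genes) over the same classes, but this rested on the limit to higher counts. Over all tested protein-coding genes it was 5.43% in the shortest and 5.67% in the longest class, with 7.28% between 30 and 100 kb, while the share that fell still went from 2.87% to 12.3%. With auxin alone, among genes above the median count, rises went from 7.37% of the shortest to 32.7% of the longest class and falls were most frequent among the shortest (21.7%). Over all tested protein-coding genes auxin raised 5.85% of the shortest class, 20.2% between 100 and 300 kb and 15.8% of the longest. Above the median count, the median log2 fold change of the longest class was -0.10 here and 0.12 with auxin. Over all tested protein-coding genes it was -0.07 here and -0.0014 with auxin. These shares are descriptions with no test, and genes in a class are not independent.

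**Figure D5:**
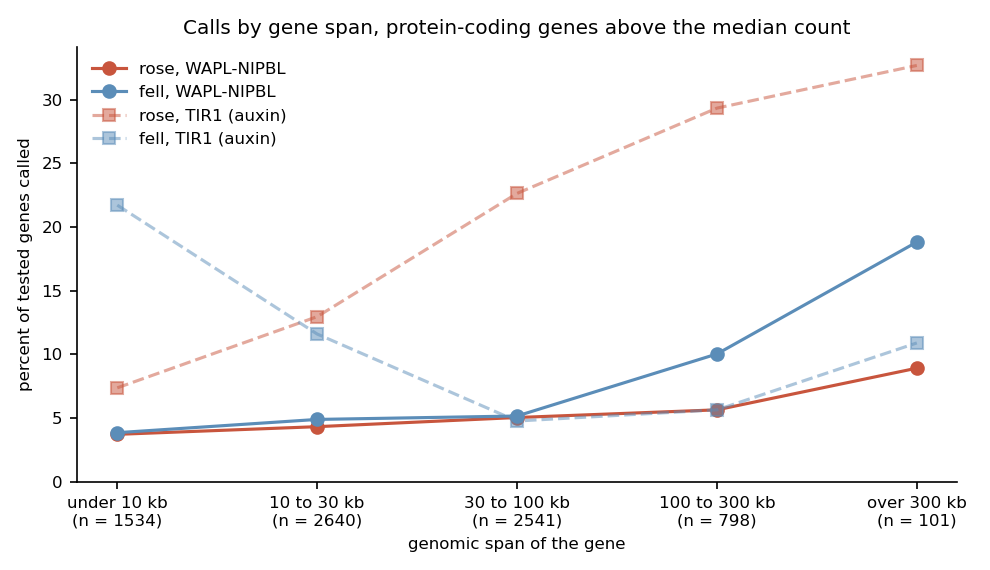
Percent of protein-coding genes above the median count that rose (red) or fell (blue) by genomic span, after joint WAPL and NIPBL depletion (circles, solid lines) and after auxin in the TIR1 line (squares, dashed lines), with the number of genes in each class below the axis. The share that fell after joint depletion is highest, at 18.8%, in the 101 genes over 300 kb. The share that rose climbs with span in these genes after joint depletion (3.72% to 8.91%) and under auxin alone (7.37% to 32.7%).

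Changes of neighbouring genes were weakly correlated. Over 10934 pairs of adjacent tested protein-coding genes that do not overlap and lie under 100 kb apart, the correlation of log2 fold changes was 0.129, and over 2680 adjacent pairs at least 100 kb apart it was 0.0031. For genes 20 positions apart it was -0.0119. In the WAPL line the adjacent pairs under 100 kb gave 0.2098, and in the TIR1 line 0.1496. Of pairs of this kind under 100 kb in which both genes were called, 134 of 166 moved the same way, against 30 of 57 at larger distances. For the log2 ratio of untreated replicate 1 to 2 the correlation of the closer pairs was 0.0443, and all of these are descriptions over pairs that share genes. By kind of gene, 6.35% of 15225 protein-coding genes rose and 4.33% fell, against 3.39% and 0.913% of 767 lincRNA genes. Genes with the highest counts fell more often (6.26% of the most highly counted of 4 equal classes) than they rose (3.87%), while in the class with the lowest counts 1.52% rose and 0.401% fell.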

How the data were processed

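Per the labels, polyadenylated RNA of mouse embryonic stem cells was sequenced from 10 groups of 3 libraries. The deposited values are raw fragment counts per gene, made with featureCounts 2.0.1 on GENCODE vM23 without a strand option, per the file headers, and STAR 2.7.7a and mm10 are named in the submitters' processing notes. Of 55421 genes, 19868 passed edgeR's filterByExpr with a minimum count of 10. edgeR 4.0.16 (R 4.3.3) fitted 10 group means to all 30 libraries with TMM scaling, 20 residual degrees of freedom and a quasi-likelihood F-test, and a gene was called at a Benjamini-Hochberg adjusted p under 0.05. The fit was tested on simulated data. CPM, standard errors and tests were computed here. Differences of effects are contrasts of the same fit. Members and gene lists were chosen with earlier results of these data known. The naming rule picked the 12 largest rises and falls among called genes whose mean reached 50 counts and whose groups do not overlap. It also picked the 3 called members with the largest change of each list. Last, it picked the 3 largest called differences between effects in each direction among genes whose mean reached 50 counts. Not all genes it picked are described in the text. Other genes were chosen after their values were seen. Same-numbered untreated and treated libraries of the line deviated together (r = 0.186, 0.249 and 0.195), so the numbers were taken to pair the samples. All 6 other pairings were below 0, but deviations from a group mean add up to 0, so this adds little. The fit with a replicate block within each line was added after seeing the data. Alternatives were DESeq2 1.42.0, other size factors, no filter, fewer libraries, replicate blocks and leaving out each library. Total counts of the 6 libraries ran from 22235051 to 33807322, and a gene at 0 counts in a library was taken to allow up to 3. Some single-gene results are not reported here.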

Additional observations from a re-analysis of the deposited data

Results flagged for a closer look

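Each value here was picked because the effect in the WAPL-NIPBL line differed from that in another line by a test of the difference itself (edgeR, adjusted over all genes). That was so for 1398 genes against auxin alone, 1032 against loss of WAPL and 72 against the PDS5AB-NIPBL line. The log2 differences below are the WAPL-NIPBL effect minus the other effect.

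Against auxin in the TIR1 line, the difference among genes with the largest changes was 2.02 for Epn3, 1.305 for Sstr5 and 1.08 for Slc44a5 on the higher side. On the lower side it was -2.77 for Scn3a, -2.76 for Lrrc15, -2.71 for Ceacam1, -2.36 for Cyp1a1, -1.25 for Tor3a and -1.13 for Igfbp7. Among genes whose mean reached 50 counts the largest differences were 3.48 for Gm25911, 2.46 for Gm7783 and 2.404 for Rpsa-ps12 upward and -3.19 for Gm13577 downward. None of these 4 genes was called in the WAPL-NIPBL line (edgeR), though Rpsa-ps12 was with the replicate block within each line. The TIR1 libraries belong to separate runs of library numbers, which cannot be told apart from the auxin effect.

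Against loss of WAPL, the difference was 1.51 for Lrrc15 and 1.42 for Ceacam1, both of which fell less here, and -1.303 for Slc44a5, -1.22 for Calr4 and -1.14 for Kndc1. Among genes whose mean reached 50 counts the largest differences were 3.13 for Has2, 2.96 for Glod5 and 2.51 for Gm47725 upward and -2.44 for Nsg2, -2.13 for Fras1 and -1.91 for Plscr2 downward.

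Against the PDS5AB-NIPBL line, the largest among genes whose mean reached 50 counts were 1.94 for Ceacam1, 1.74 for Has2 and 1.63 for Adamts8 upward and -2.09 for Kctd12, -1.66 for Gm6166 and -1.41 for Tbc1d4 downward. Has2 and Ceacam1 thus had a higher effect than in both the WAPL and the PDS5AB-NIPBL line. No cause of these differences was tested.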

How the results depend on the processing

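The count of called genes (1702) was 1702 with RLE size factors, 1712 without the filter on low counts, 2024 with DESeq2, 1533 in 18 libraries, 1696 in the groups alone and 2417 with a replicate block over all libraries. It was 347 at a minimum of 2-fold, 4152 with a replicate block within each line, which was chosen after seeing the data, 5816 with the replicate block in the groups alone, and 1146 to 1355 when single libraries were left out. The 1398 differences from auxin became 423 at 2-fold, 2107 in the groups alone, 2172 with the replicate block, 2285 with the block in the groups alone, 4436 with the block within each line and 930 to 1317 without single libraries. The 1032 differences from WAPL loss became 290 at 2-fold, 2731 with the block in the groups alone, 3070 with the block within each line and 717 to 1142 without single libraries. The 72 differences from the PDS5AB-NIPBL line became 25 at 2-fold, 149 with DESeq2, 163 without the filter, 170 with the replicate block, 733 with the block in the groups alone, 807 with the block within each line and 30 to 57 without single libraries. For these counts the cause was not tested, except that a minimum fold takes genes away by construction.

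Over 1522 values of the 109 genes picked by the naming rule, compared under the alternatives, 125 fell out of the call, 12 entered it and none changed direction. Of the 95 of these genes that were called, 62 were called under every alternative run for them. Of 476 counts of list members compared, 115 moved by more than 1.5 times. Some calls of the depletion effect changed with the replicate block within each line, and these are given beside their results. The only other such change in a gene named in the report was Gm47725. It was named among the differences from WAPL loss and was called with this block (edgeR adjusted p = 0.0294). Calls near the threshold moved between settings, and the power of 3 libraries a group for small changes was not measured.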
